A study of Mus musculus with 15 samples.

Results

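The 8 genes Gpr141b, Rasgrp3, Gcsam, Snx22, Gatm, Fzd1, Plpp1 and Anpep, out of 19938 genes measured, were followed in dendritic cell (DC) progenitors of mouse bone marrow. They were picked by name because their signal had been seen to be high in wild-type (WT) cells that express Zbtb46-GFP or low in such cells without Batf3 or Id2. Each was read from the probe set (a group of array probes scored together) annotated to it alone, and each had 1 such probe set. The comparisons that chose them, those of knockout with WT Zbtb46-GFP+ cells and of WT Zbtb46-GFP+ cells with WT CDPs, are given as a description without a test.

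Sorted cells were hybridised to 15 Affymetrix arrays in 6 groups. The Zbtb46-GFP+ c-Kit-intermediate cells came from Batf3 KO, Id2 KO and WT mice (3 arrays each), and the common dendritic cell progenitors (CDPs) came from the same genotypes (2 arrays each). By the labels, all mice carried the Zbtb46-GFP reporter. Batf3 KO cells came from reporter mice and Id2 KO and WT cells from chimeric mice, so loss of Batf3 and the type of host cannot be told apart. The labels give no age, and nothing says whether arrays of a group came from separate animals, so p-values measure only the spread between arrays. The first replicate of all 3 Zbtb46-GFP+ genotypes had a different signal scale (array medians of 23.8 to 24.1, against 100.8 to 112.1 on the other 12), and is given apart. All other values are log2 signal from the 12 arrays on one scale, 2 per group.

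CDPs give rise to plasmacytoid DCs (pDCs) and to classical DCs, and Zbtb46 marks progenitors committed to the classical branch. The type 1 classical DC (cDC1), specialised in presenting antigen of dead cells to CD8 T cells, depends on Batf3, an AP-1 factor that sustains Irf8, and on Id2, which holds back the E proteins that favour pDCs. Gpr141b, also called Karma, has been used to drive reporters in cDC1s. None of the 8 genes is in the list of cDC1 markers read further below. The 8 genes encode an orphan receptor, a Ras activator, a signalling adaptor, a sorting nexin, a creatine enzyme, a Wnt receptor, a lipid phosphatase and a peptidase.

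As a check of the labels, the Batf3 probe set (10352717) had 7.10 ± 0.31 log2 units (mean ± SD, n = 2) in Batf3 KO Zbtb46-GFP+ cells and 9.92 ± 0.10 in WT. The Id2 probe set (10399691) had 8.61 ± 0.30 in Id2 KO and 11.74 ± 0.37 in WT Zbtb46-GFP+ cells. Batf3 was at 8.29 ± 0.11 in Id2 KO Zbtb46-GFP+ cells, between the other genotypes, whereas Id2 was at 11.35 ± 0.30 in the Batf3 KO. In CDPs, Batf3 had 7.11 ± 0.21 in Batf3 KO and 7.14 ± 0.02 in WT, so it does not check the labels of those arrays. Id2 had 6.52 ± 0.79 in Id2 KO CDPs and 7.54 ± 0.19 in WT CDPs, and its level in Id2 KO Zbtb46-GFP+ cells lay above both. The summed signal of 6 progenitor markers (Flt3, Kit, Csf1r, Mpo, Cd34 and Cd93) ran from 5983 to 8860 in Zbtb46-GFP+ arrays. In CDP arrays it ran from 18133 to 22022. The sum does not hold for each marker. Csf1r, Mpo, Cd34 and Cd93 were called lower in Zbtb46-GFP+ cells than in CDPs in every genotype (limma). Kit was called higher, by 1.39 in Batf3 KO, 0.78 in Id2 KO and 1.5 in WT. Flt3 was called in none (-0.04, 0.32 and 0.11 in the same order). Xist had 5.06 to 5.71 on the knockout arrays and 11.93 to 12.42 on the WT arrays, so sex pattern and genotype cannot be told apart on the 12 arrays; none of the 8 genes lies on X or Y.

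The 8 genes lie on 7 chromosomes, with Gpr141b and Plpp1 both on chromosome 13. RefSeq windows on GRCm38.p6, from 250 bases before to 50 after a start site, were held for 7 of the 8 genes (9 windows; Plpp1 was not matched). Such windows were searched on both strands, with overlapping matches allowed, for TGANTCA (the AP-1 site), a composite of ETS and IRF sites (GGAA and, after any 2 bases, GAAA), an IRF tandem (GAAA, any 2 bases and GAAA again) and the E-boxes CAGCTG and CACCTG. A few are shown because their genes stand for the patterns described below, a high level in WT Zbtb46-GFP+ cells alone (Gpr141b, Gcsam), a level in knockout Zbtb46-GFP+ cells below that of CDPs (Gatm) and a level that passed as higher than that of CDPs in both knockouts (Anpep), with the matches in capitals:
Gpr141b promoter, chr13:19732902-19733201, strand -: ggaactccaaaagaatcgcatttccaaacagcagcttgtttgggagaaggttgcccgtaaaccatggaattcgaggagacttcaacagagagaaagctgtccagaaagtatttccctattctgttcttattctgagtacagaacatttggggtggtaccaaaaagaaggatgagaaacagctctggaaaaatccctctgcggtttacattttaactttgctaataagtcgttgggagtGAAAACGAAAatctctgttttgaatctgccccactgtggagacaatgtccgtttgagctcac
Gcsam promoter, chr16:45610190-45610489, strand +: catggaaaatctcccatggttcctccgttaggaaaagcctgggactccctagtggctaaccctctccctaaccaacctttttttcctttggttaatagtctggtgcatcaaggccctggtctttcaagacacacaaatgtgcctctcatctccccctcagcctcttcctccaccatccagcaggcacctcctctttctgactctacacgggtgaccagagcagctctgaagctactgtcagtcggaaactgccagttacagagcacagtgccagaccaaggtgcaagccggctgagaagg
Gatm promoter, chr2:122611228-122611527, strand -: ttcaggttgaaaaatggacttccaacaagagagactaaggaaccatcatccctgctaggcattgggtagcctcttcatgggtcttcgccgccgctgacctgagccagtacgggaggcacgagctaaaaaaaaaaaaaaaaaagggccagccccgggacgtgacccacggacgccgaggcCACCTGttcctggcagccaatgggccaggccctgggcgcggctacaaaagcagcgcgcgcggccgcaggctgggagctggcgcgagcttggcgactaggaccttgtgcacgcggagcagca
Anpep promoter, chr7:79848161-79848460, strand -: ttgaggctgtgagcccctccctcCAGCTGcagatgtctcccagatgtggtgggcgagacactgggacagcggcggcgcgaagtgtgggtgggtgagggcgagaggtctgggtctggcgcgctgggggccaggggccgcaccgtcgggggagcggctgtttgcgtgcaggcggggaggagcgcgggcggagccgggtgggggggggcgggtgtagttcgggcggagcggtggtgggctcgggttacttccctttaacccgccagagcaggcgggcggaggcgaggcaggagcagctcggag

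The Gpr141b window held 1 match to the IRF tandem, GAAAACGAAA, which starts 12 bases upstream of the start site and overlaps no other match. The Gatm window held 1 CACCTG at 71 bases upstream, and the Anpep window 1 CAGCTG at 227 bases upstream. The Gcsam window held none of the motifs, nor did those of Rasgrp3, Snx22 and Fzd1. No window of the members held TGANTCA or the ETS-IRF composite. Of 32851 windows of this length, 7.81% held TGANTCA, 2.72% the ETS-IRF composite, 3.44% the IRF tandem, 16.3% CAGCTG and 20.2% CACCTG. A match is a description of letters in this window.

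In WT, all 8 genes had a higher signal in both Zbtb46-GFP+ arrays than in both CDP arrays. Without Batf3 or without Id2, both Zbtb46-GFP+ arrays lay below both WT arrays for every one of them. Over all genes, 21.4% were without overlap and higher in WT Zbtb46-GFP+ cells than in WT CDPs, 10.7% were lower without overlap in Batf3 KO and 16.4% in Id2 KO Zbtb46-GFP+ cells than in WT. The rule used these contrasts, so nothing is read from the counts. The median difference of the 8 genes was -2.75 log2 units in Batf3 KO and -3.16 in Id2 KO Zbtb46-GFP+ cells relative to WT (0.01 and -0.02 over all genes). It was 3.73 between WT Zbtb46-GFP+ cells and WT CDPs (0.03 over all genes). The file holds no detection call, so low signals cannot be told from background, and differences and folds against them may be understated. In sorted populations, fewer cells of a type and less RNA per cell cannot be told apart.

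**Figure D1:**
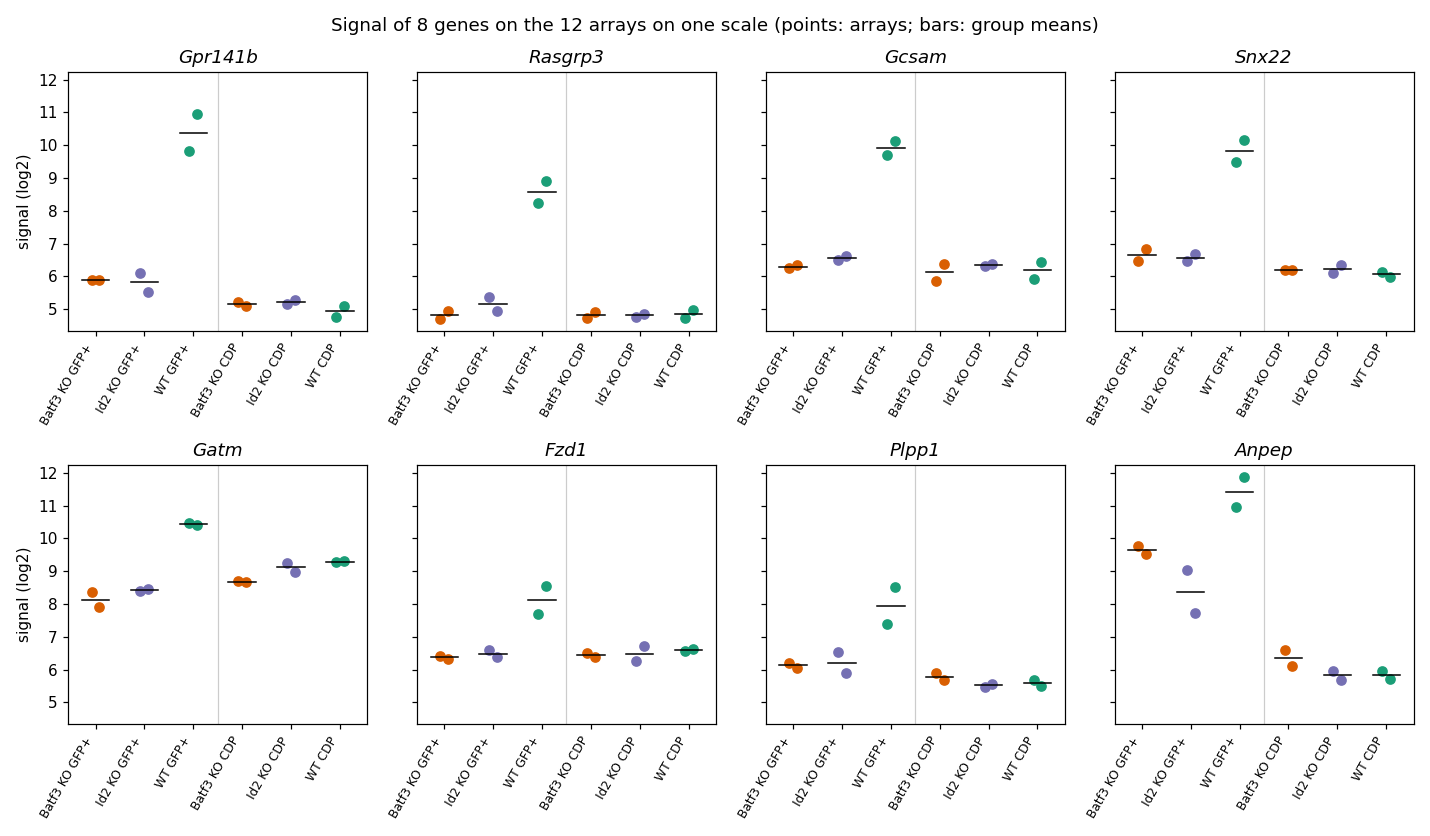
Log2 signal of each gene (vertical axis) on the 12 arrays on one scale, by group (horizontal axis; GFP+ stands for Zbtb46-GFP+ cells); points are arrays and bars are means of 2. WT Zbtb46-GFP+ cells are on top for all 8 genes, Gatm has 8.66 to 9.32 in CDPs and 7.90 to 8.45 in the knockout Zbtb46-GFP+ cells, and Anpep keeps an intermediate level of 7.73 to 9.77 in the knockout Zbtb46-GFP+ cells.

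Gpr141b (probe set 10407982), an orphan G-protein-coupled receptor whose ligand is not known, had log2 signals of 5.90 and 5.88 in Batf3 KO Zbtb46-GFP+ cells, 6.11 and 5.53 in Id2 KO Zbtb46-GFP+ cells, and 9.81 and 10.94 in WT Zbtb46-GFP+ cells. It had 5.20 and 5.10 in Batf3 KO CDPs, 5.15 and 5.29 in Id2 KO CDPs and 4.76 and 5.09 in WT CDPs. Only the WT Zbtb46-GFP+ arrays were high, and the means of the other 5 groups ran from 4.92 to 5.89. The WT difference between the stages in measured signal was 5.45 log2 units. Relative to WT Zbtb46-GFP+ cells it was -4.48 in Batf3 KO and -4.55 in Id2 KO.

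A further pair of members acts in signalling from receptors. Rasgrp3 (10446965), a guanine nucleotide exchange factor that activates Ras and Rap on calcium and diacylglycerol signals, had 4.70 and 4.93 in Batf3 KO Zbtb46-GFP+ cells, 5.37 and 4.94 in Id2 KO Zbtb46-GFP+ cells, and 8.23 and 8.91 in WT Zbtb46-GFP+ cells. Its CDP values were 4.74 and 4.92 in Batf3 KO CDPs, 4.77 and 4.86 in Id2 KO CDPs and 4.72 and 4.98 in WT CDPs. The 10 arrays outside WT Zbtb46-GFP+ cells all lay between 4.70 and 5.37, so the means of those 5 groups (4.82 to 5.15) cannot be ordered. The WT difference between stages in measured signal was 3.72, and the knockout differences were -3.75 (Batf3) and -3.42 (Id2). Rasgrp3 was the only 1 of the 8 genes removed by a filter on dim genes.

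Gcsam (10436024), an adaptor best known from germinal centre B cells, where it modulates B cell receptor signalling and cell movement, had 6.24 and 6.34 in Batf3 KO Zbtb46-GFP+ cells, 6.50 and 6.61 in Id2 KO Zbtb46-GFP+ cells, and 9.70 and 10.14 in WT Zbtb46-GFP+ cells. In CDPs its values were 5.87 and 6.38 in Batf3 KO CDPs, 6.31 and 6.36 in Id2 KO CDPs and 5.93 and 6.45 in WT CDPs. The WT Zbtb46-GFP+ pair stood apart from everything else, with group means of 6.12 to 6.55 elsewhere. It differed by 3.73 (13.3-fold) between stages in WT, by -3.63 in Batf3 KO and by -3.37 in Id2 KO Zbtb46-GFP+ cells relative to WT.

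Another pair acts at membranes. Snx22 (10594582), a sorting nexin with a phosphoinositide-binding PX domain, had 6.47 and 6.82 in Batf3 KO Zbtb46-GFP+ cells, 6.46 and 6.67 in Id2 KO Zbtb46-GFP+ cells, and 9.50 and 10.17 in WT Zbtb46-GFP+ cells. Its CDP values were 6.20 and 6.18 in Batf3 KO CDPs, 6.10 and 6.35 in Id2 KO CDPs and 6.13 and 5.98 in WT CDPs. Again only WT Zbtb46-GFP+ cells were high (9.84 ± 0.47, mean ± SD, n = 2), 3.78 log2 units (13.8-fold) above WT CDPs, and the knockouts differed from them by -3.19 (Batf3) and -3.27 (Id2).

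Plpp1 (10407211), a membrane phosphatase that removes phosphate from lipid mediators such as lysophosphatidic acid, had 6.21 and 6.06 in Batf3 KO Zbtb46-GFP+ cells, 6.52 and 5.90 in Id2 KO Zbtb46-GFP+ cells, and 7.39 and 8.51 in WT Zbtb46-GFP+ cells. Its CDP values were 5.89 and 5.68 in Batf3 KO CDPs, 5.48 and 5.55 in Id2 KO CDPs and 5.67 and 5.50 in WT CDPs. The WT pair was wide, with 1.12 log2 units between replicates 3 and 2, yet both lay above every other array. The difference between stages in WT was 2.36 (5.14-fold), and the knockouts differed by -1.81 (Batf3) and -1.74 (Id2).

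Fzd1 (10527936), a receptor for Wnt ligands, had 6.42 and 6.33 in Batf3 KO Zbtb46-GFP+ cells, 6.59 and 6.38 in Id2 KO Zbtb46-GFP+ cells, and 7.68 and 8.54 in WT Zbtb46-GFP+ cells. Its CDP values were 6.51 and 6.39 in Batf3 KO CDPs, 6.25 and 6.72 in Id2 KO CDPs and 6.57 and 6.63 in WT CDPs. The difference between stages in WT was 1.52 (2.86-fold), with the other 5 group means within 6.38 to 6.60. The knockout differences were -1.73 (Batf3) and -1.63 (Id2).

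Gatm and Anpep followed other courses. Gatm (10487011), the mitochondrial enzyme that makes guanidinoacetate, the precursor of creatine, had 8.37 and 7.90 in Batf3 KO Zbtb46-GFP+ cells, 8.39 and 8.45 in Id2 KO Zbtb46-GFP+ cells, and 10.47 and 10.41 in WT Zbtb46-GFP+ cells. In CDPs it already had 8.69 and 8.66 in Batf3 KO CDPs, 9.26 and 8.97 in Id2 KO CDPs and 9.27 and 9.32 in WT CDPs. The knockout Zbtb46-GFP+ arrays were therefore the lowest of all, below the CDPs of their own genotype, and WT Zbtb46-GFP+ cells the highest. WT differed by 1.15 (2.22-fold) between stages, and the knockouts differed from WT Zbtb46-GFP+ cells by -2.31 (Batf3) and -2.02 (Id2).

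Anpep (10564818), the surface aminopeptidase CD13 of myeloid cells, which trims peptides from their amino end, had 9.77 and 9.52 in Batf3 KO Zbtb46-GFP+ cells, 9.03 and 7.73 in Id2 KO Zbtb46-GFP+ cells, and 10.97 and 11.88 in WT Zbtb46-GFP+ cells. Its CDP values were 6.60 and 6.10 in Batf3 KO CDPs, 5.97 and 5.69 in Id2 KO CDPs and 5.96 and 5.71 in WT CDPs. All Zbtb46-GFP+ arrays lay above all CDP arrays, in every genotype, in the order Id2 KO, Batf3 KO and WT by their means (8.38 ± 0.92, 9.64 ± 0.18 and 11.43 ± 0.64, SD, n = 2 each). The same held for Gpr141b, Snx22 and Plpp1, by less in the knockouts. Their lowest Zbtb46-GFP+ arrays had 5.53, 6.46 and 5.90, and their highest CDP arrays 5.29, 6.35 and 5.89. Anpep thus differed from them in the size of the knockout steps. The WT difference between stages was 5.59 (48.3-fold). The knockouts differed from WT by -1.78 (Batf3) and -3.04 (Id2).

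The 2 WT Zbtb46-GFP+ arrays differed for 7 of the 8 genes in the same direction, with replicate 3 above replicate 2 by 0.44 (Gcsam) to 1.13 log2 units (Gpr141b). For Gatm the gap was -0.06. The Batf3 KO pair was closer than the WT pair for 7 genes, with Gatm the exception (-0.47). The Id2 KO pair was closer for 6 genes; Anpep was further apart (-1.30) and Gatm had a gap of 0.06.

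The step to Zbtb46-GFP+ cells within each knockout was not used to choose the genes, but the low knockout Zbtb46-GFP+ values were, and this lowers those differences. With limma, Anpep rose in the Batf3 KO (3.29, SE 0.38, 9.80-fold, adjusted p = 4.77e-04) and was the only 1 of the 8 members called higher there, against 3.87% of all genes; none was called lower (3.32% of all genes). Without overlap between the arrays of the stages, 4 of 8 were higher and 1 lower in Batf3 KO (21.6% and 23.3% of all genes), and 6 of 8 were higher and 1 lower in Id2 KO (20.3% and 21.4%). In the Id2 KO Anpep rose as well (2.55, SE 0.38, 5.86-fold, adjusted p = 0.00238), 1 of 8 called higher, against 3.84% of all genes. Gatm fell in the Id2 KO (-0.69, SE 0.16, adjusted p = 0.0271), 1 of 8 called lower, against 2.98% of all genes. In the Batf3 KO Gatm differed by -0.54 (SE 0.16, adjusted p = 0.081).

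The remaining 6 genes passed in neither knockout. Gpr141b differed by 0.74 (95% interval 0.07 to 1.41, adjusted p = 0.217) in Batf3 KO and by 0.60 (-0.07 to 1.26, adjusted p = 0.379) in Id2 KO. Plpp1 differed by 0.35 (-0.32 to 1.01) and 0.70 (0.03 to 1.36), and Snx22 by 0.45 (-0.01 to 0.92) and 0.34 (-0.12 to 0.80). Gcsam, with 0.17 (-0.30 to 0.64) and 0.22 (-0.25 to 0.69), and Fzd1, with -0.07 (-0.61 to 0.47) and -0.01 (-0.54 to 0.53), lay near 0 in both knockouts. Rasgrp3 lay nearest to 0 in Batf3 KO, with -0.01 (-0.50 to 0.48). In Id2 KO it differed by 0.34 (-0.15 to 0.82), as much as Snx22. Over the 8 genes the median difference between stages was 0.26 in Batf3 KO and 0.34 in Id2 KO (0.01 over all genes in both).

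The Gatm call in Id2 KO ended without Id2 KO CDP replicate 1 (adjusted p = 0.198), without Id2 KO Zbtb46-GFP+ replicate 2 (0.177) or replicate 3 (0.128), with replicate number entered as a block (0.107) and on 15 arrays with a term for the 3 on another scale (0.108). In Batf3 KO, Gatm passed without Zbtb46-GFP+ replicate 2 (-0.77, adjusted p = 0.0326) and with array sets as a block (0.0195), and Gpr141b passed without WT Zbtb46-GFP+ replicate 2 or replicate 3 (adjusted p = 0.0419 each), which moves only the shared estimate of the spread.

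**Figure D2:**
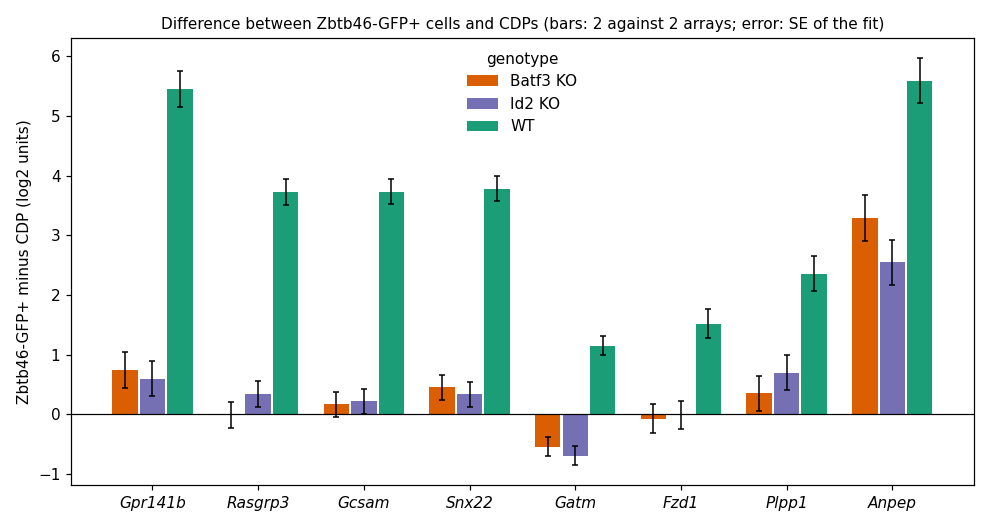
Difference in log2 signal between Zbtb46-GFP+ cells and CDPs (vertical axis) for each gene, in Batf3 KO, Id2 KO and WT; bars are differences of means of 2 arrays and error bars are the standard error of the fit. WT bars are all above 0, from 1.15 (Gatm) to 5.59 (Anpep); in the knockouts Anpep keeps 3.29 and 2.55 and Gatm is below 0 (-0.54 and -0.69).

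The comparisons of genotypes in CDPs were not part of the rule, but the WT CDP arrays in them were, and choosing genes that are low there raises the difference of knockout and WT. None of the 8 genes passed limma in Batf3 KO CDPs against WT CDPs (0.0502% of all genes were called; 1 of the 8, Gatm, had an unadjusted p under 0.05). None passed in Id2 KO CDPs against WT CDPs (0.0251% of all genes; 0 of 8 at an unadjusted p under 0.05). Gatm differed by -0.62 in Batf3 KO CDPs (95% interval -0.98 to -0.26, adjusted p = 1), and both Batf3 KO arrays lay below both WT arrays. Without overlap, 4 of 8 were higher and 2 lower in Batf3 KO CDPs (9.85% and 8.2% of all genes), and 1 was higher and 1 lower in Id2 KO CDPs (6.66% and 6.48%). In Id2 KO CDPs Gatm differed by -0.18 (-0.54 to 0.18).

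For the other 7 genes, differences in CDPs ran from -0.15 (Fzd1, -0.68 to 0.39) to 0.52 (Anpep, -0.33 to 1.37) in Batf3 KO and from -0.11 (Fzd1, -0.64 to 0.43) to 0.30 (Gpr141b, -0.37 to 0.97) in Id2 KO. Rasgrp3 had the smallest difference of these genes in Batf3 KO, -0.03 (-0.51 to 0.46). The widest interval, that of Anpep, allows differences of up to 1.37 log2 units in Batf3 KO and of -0.85 to 0.85 in Id2 KO. These intervals do not show that the genotypes had the same level.

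Between the knockouts, Id2 KO against Batf3 KO Zbtb46-GFP+ cells, none of the 8 genes passed limma, against 0.592% of all genes (1 of 8, Anpep, had an unadjusted p under 0.05). This contrast was not part of the rule, although its arrays were. Anpep differed by -1.26 log2 units in Id2 KO relative to Batf3 KO (95% interval -2.11 to -0.41, 2.40-fold, adjusted p = 0.345), with no overlap between the pairs. Without overlap, 3 of 8 were higher and 1 lower in Id2 KO (15.6% and 16.7% of all genes). The Anpep difference was -0.61 without Id2 KO Zbtb46-GFP+ replicate 3 and -1.91 without Id2 KO replicate 2. It passed limma only with the 2 sets of arrays of higher and lower 75th percentile as a block (adjusted p = 0.0103), and under no planned setting. That block, also used for Gatm above, was chosen after seeing the data. Its sets come from the signals of the same arrays, so nothing is read from this pass. The other 7 genes differed by -0.08 (Snx22, -0.54 to 0.38) to 0.34 (Rasgrp3, -0.15 to 0.82).

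**Figure D3:**
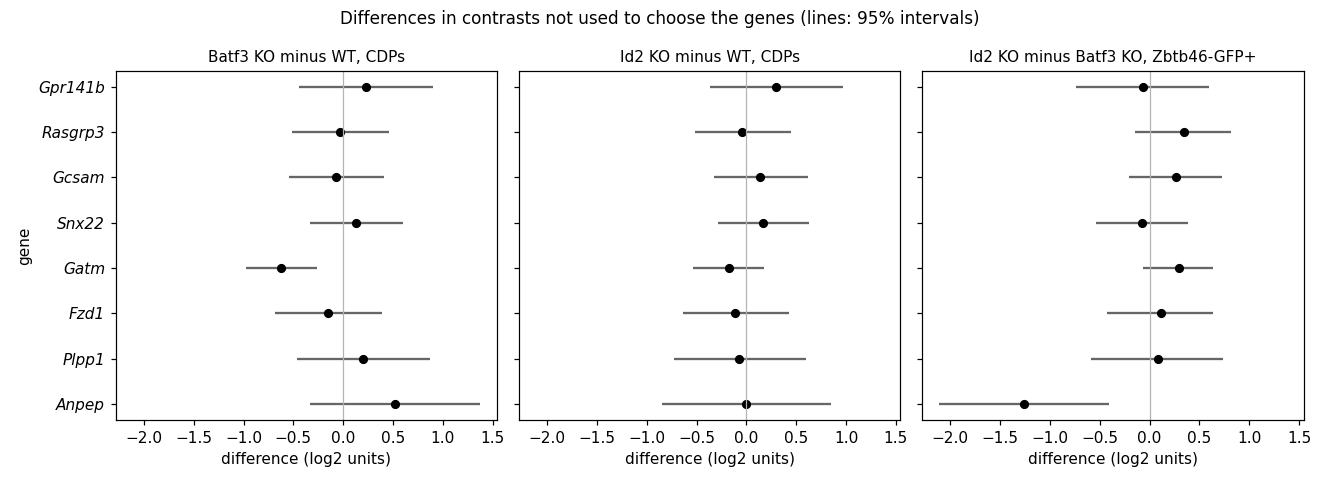
Differences in log2 units (horizontal axis) with 95% intervals for each gene, in Batf3 KO minus WT CDPs, Id2 KO minus WT CDPs, and Id2 KO minus Batf3 KO Zbtb46-GFP+ cells. The intervals cover 0 except for Gatm in Batf3 KO CDPs (-0.98 to -0.26) and Anpep between the knockouts (-2.11 to -0.41), and neither passes after adjustment over all genes.

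The 3 replicate 1 Zbtb46-GFP+ arrays, 1 per genotype, were not used for the means above, and allow no test. Many values there are identical between arrays: 74.9% of genes in Batf3 KO and WT, and 62.5% in Id2 KO and WT. Gpr141b had 4.77 in Batf3 KO, 4.20 in Id2 KO and 8.33 in WT. Gcsam had 4.38 in both knockouts and 6.53 in WT. Gatm had 5.25 in Batf3 KO, 5.61 in Id2 KO and 6.72 in WT.

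Rasgrp3 had 4.49, 4.70 and 5.70 on the Batf3 KO, Id2 KO and WT arrays, and Anpep had 7.86, 7.19 and 8.74. Plpp1 (3.97, 3.78 and 4.25) and Snx22 (4.17, 4.17 and 4.28) were nearly flat across these arrays, and Fzd1 had the same value, 4.74, on all 3. Thus 7 of the 8 genes were lower than in WT on each knockout array and 1 was tied. Of these, Snx22 was lower by little (-0.11 on each), as was Plpp1 (-0.29 in Batf3 KO and -0.47 in Id2 KO). The share of all genes lower by any amount was not computed, so nothing is read from this count. At least 1 log2 unit lower were 4 of 8 in the Batf3 KO array (0.16% of all genes) and 4 of 8 in the Id2 KO array (1.10% of all genes), namely Gpr141b, Rasgrp3, Gcsam and Gatm in Batf3 KO and Gpr141b, Gcsam, Gatm and Anpep in Id2 KO, where Rasgrp3 fell just short. On these arrays Xist had 11.02 in Batf3 KO, 3.66 in Id2 KO and 10.53 in WT, so the sex pattern of the Batf3 KO array was that of the WT array. In that pair the differences of the 8 genes ran from -3.56 (Gpr141b) to 0 (Fzd1), and the part of sex in any of them was not tested. These values were already known when the genes were chosen, and the comparisons of both knockouts share the WT arrays.

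**Figure D4:**
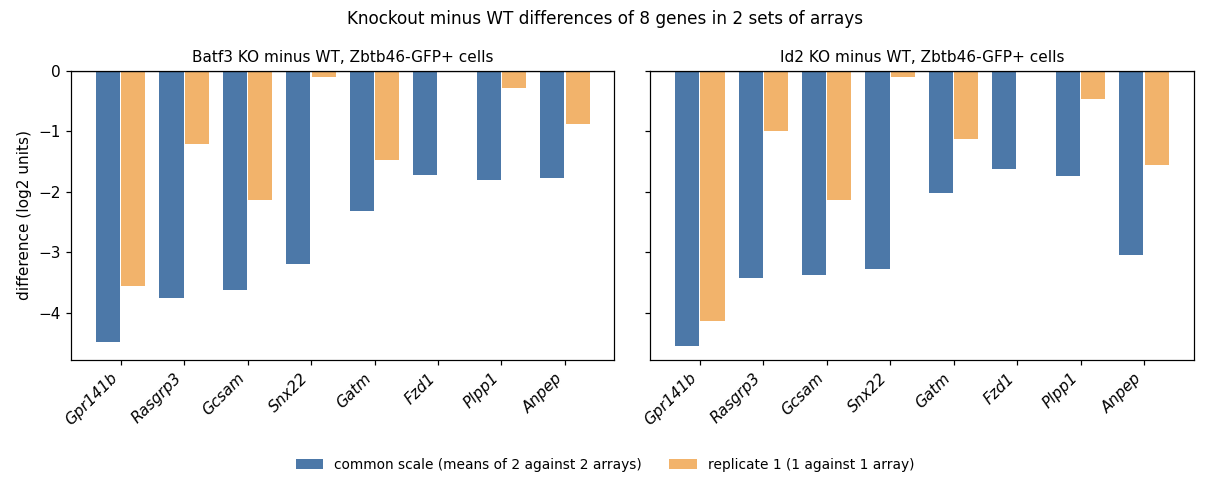
Knockout minus WT differences in Zbtb46-GFP+ cells in log2 units (vertical axis), for Batf3 KO and Id2 KO, from the arrays on the common scale (means of 2 against 2) and from the replicate 1 arrays (1 against 1). Gpr141b is near its size in both sets (-4.48 and -3.56 in Batf3 KO; -4.55 and -4.13 in Id2 KO), whereas Snx22 is -0.11 and Fzd1 0 on the replicate 1 arrays.

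Across the 12 arrays the 8 genes resembled each other to different degrees, described by Pearson's r of log2 signal over 12 arrays that share 6 groups. The 28 pairs had a median r of 0.918. Rasgrp3 and Gcsam were closest (0.993), followed by Gpr141b and Snx22 (0.991), while Gatm and Anpep were furthest apart (0.307). Since the genes were chosen on the same arrays, these are descriptions.

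Among 1558 other genes whose group means spanned at least 1 log2 unit, the nearest to the mean profile of the 8 were Fgd6 (r = 0.998), a guanine nucleotide exchange factor of the FGD family, Ppt1 (0.996), a lysosomal thioesterase, Xcr1 (0.988), the receptor for Xcl1 on cDC1s, Cd36 (0.984), a scavenger receptor, and Ppef2 (0.983), a phosphatase. Fgd6 had group means of 6.0 in Batf3 KO, 6.0 in Id2 KO and 8.14 in WT Zbtb46-GFP+ cells, and 5.82 to 5.89 in CDPs. Ppt1, Fgd6 and Xcr1 were also the 3 nearest to each of Gpr141b (0.989 to 0.991), Rasgrp3 (0.986 to 0.991) and Snx22 (0.989 to 0.990). Gcsam had Ppt1 (0.991), Cd36 (0.988) and Xcr1 (0.982).

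Fzd1 was nearest to Cltrn (0.988), Gramd2 (0.976) and Fgd6 (0.973), and Plpp1 to Ppef2 (0.977), Dbn1 (0.970) and Slc7a8 (0.966). Anpep was nearest to Cdk14 (0.984), Gm6377 (0.984) and Cd86 (0.983), a costimulatory ligand. Cd86 had 8.51 in Batf3 KO, 7.81 in Id2 KO and 9.87 in WT Zbtb46-GFP+ cells, and 6.20 to 6.44 in CDPs. Gatm had no gene as near, with Myof (0.853), Tubb6 (0.838) and BC028528 (0.830). Cltrn and Gm6377 lie on the X chromosome, and the part of sex in their profiles was not tested.

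Genes related to the members by family or pathway are given from lists that leave the members out; in WT, 4.71% of all genes were called higher and 6.38% lower between the stages. Of the 3 other RasGRP genes, Rasgrp4 rose in every genotype, by 2.16 in Batf3 KO (adjusted p = 0.00186), by 1.88 in Id2 KO (0.0048; 0.0558 without Id2 KO Zbtb46-GFP+ replicate 2) and by 2.51 in WT (4.79e-04, limma). Its difference in Zbtb46-GFP+ cells was 0.23 in Batf3 KO and -0.26 in Id2 KO relative to WT (adjusted p = 1 and 0.983). Rasgrp2 was higher in Id2 KO than in WT Zbtb46-GFP+ cells (1.48, adjusted p = 0.00336; 0.105 on 15 arrays with a term for the 3), the opposite sign to Rasgrp3, and fell between the stages in WT (-1.06, adjusted p = 0.00574; 0.0603 without WT CDP replicate 1).

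Gpr141, the gene most like Gpr141b by name and also on chromosome 13, rose by 2.00 in Batf3 KO (adjusted p = 0.0202) and by 2.11 in WT (0.0108), and differed by 0.27 in Id2 KO (0.948). On these settings the Batf3 KO call ended when any 1 of its 4 arrays was left out (adjusted p of 0.0711 to 0.116), and the WT call without WT CDP replicate 2 (0.0797) or Zbtb46-GFP+ replicate 3 (0.0726). In Zbtb46-GFP+ cells Gpr141 differed from WT by 0.35 in Batf3 KO (adjusted p = 1) and by -1.16 in Id2 KO (0.378), against -4.48 and -4.55 for Gpr141b. Whether the probes of either gene also bind transcripts of the other was not tested.

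Of 6 other creatine genes (Gamt, which finishes the synthesis, the creatine kinases and the transporter Slc6a8), 1 rose in each genotype, Ckb, the brain-type kinase, by 2.63 in Batf3 KO, 1.87 in Id2 KO and 3.01 in WT (adjusted p = 5.70e-05, 6.64e-04 and 1.19e-05). In Id2 KO against WT Zbtb46-GFP+ cells Ckb was lower (-1.12, adjusted p = 0.0286), a call that ended in 5 of the fits with 1 array left out (up to 0.249) and with centring on the 75th percentile (0.0597). Gamt and Slc6a8 passed in none of the 8 comparisons; between Id2 KO and WT Zbtb46-GFP+ cells they differed by -0.19 and -0.09.

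Of 11 other Frizzled and co-receptor genes, Fzd7 rose in WT (0.80, adjusted p = 0.00579; 0.0505 without WT CDP replicate 1) and Lrp5 fell there (-0.81, adjusted p = 0.0132; 0.129 without WT CDP replicate 1 and 0.0895 without Zbtb46-GFP+ replicate 2). Lrp5 fell in the Id2 KO as well (-0.88, adjusted p = 0.0132; 0.0636 to 0.118 without Id2 KO CDP replicate 2 or either Zbtb46-GFP+ replicate) and differed by -0.30 in the Batf3 KO (0.476). None of the 11 passed between either knockout and WT in Zbtb46-GFP+ cells (0.336% and 1.81% of all genes called), where their median differences were 0 and -0.04. The medians do not hold for each gene. Fzd7 differed by -0.47 in Batf3 KO and -0.50 in Id2 KO (limma adjusted p = 0.61 and 0.185), the same sign as Fzd1. Lrp5 differed by 0.36 and -0.13. Of 5 measured Wnt target genes none passed in these comparisons either, and their median differences were -0.02 and -0.08. In Id2 KO against WT, 2 of them differed by more, in opposite directions. Myc differed by -0.75 and Ccnd1 by 0.85 (limma adjusted p = 0.0886 and 0.205). In Batf3 KO they differed by -0.16 and 0.18. Between the stages in Id2 KO, Myc fell (-1.12, adjusted p = 0.00481; 0.0589 without Zbtb46-GFP+ replicate 3) and Ccnd1 rose (1.03, adjusted p = 0.0428; 0.0568 to 0.229 in 5 fits without 1 array). The 6 other phospholipid phosphatases had median differences of 0.06 and -0.02 in the same comparisons, with none called. Plpp2 rose between the stages in Batf3 KO (0.64, adjusted p = 0.0287; 0.0763 to 0.21 without CDP replicate 2 or either Zbtb46-GFP+ replicate).

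Of 9 measured M1 aminopeptidases other than Anpep, Aopep fell in every genotype, with differences of -1.08 in Batf3 KO, -1.31 in Id2 KO and -1.29 in WT (adjusted p = 0.0014, 5.39e-04 and 2.67e-04), whereas Anpep was higher. Rnpep fell in Id2 KO (-0.77, adjusted p = 0.00692; 0.0849 without Zbtb46-GFP+ replicate 3) and Lta4h in WT (-0.85, adjusted p = 0.00608; 0.0651 without CDP replicate 1). None of the 9 was called between a knockout and WT in Zbtb46-GFP+ cells. Of 26 other sorting nexins, Snx21 rose in every genotype, by 1.38, 1.48 and 1.27 in Batf3 KO, Id2 KO and WT (adjusted p = 7.00e-05, 6.11e-05 and 6.61e-05). In WT, Snx20 also rose (0.75, adjusted p = 0.0312) and Snx18 (-0.95, 0.0319) and Snx30 (-0.70, 0.0272) fell, calls that each ended in 2 or more of the fits without 1 array (up to 0.179, 0.248 and 0.239). Snx18 was the only 1 of the 26 called in Zbtb46-GFP+ cells, higher in Id2 KO than in WT (1.32, adjusted p = 0.0216; 0.0605 to 0.185 without any 1 of the 4 arrays). Of 4 measured germinal centre genes, Bcl6, a repressor, rose in every genotype, by 2.10, 1.66 and 2.32 in Batf3 KO, Id2 KO and WT (adjusted p = 0.00153, 0.00713 and 5.41e-04; 0.0745 in Id2 KO without Zbtb46-GFP+ replicate 2). It differed from WT by 0 in Batf3 KO and by -0.64 in Id2 KO Zbtb46-GFP+ cells (adjusted p = 1 and 0.559), against -3.63 and -3.37 for Gcsam.

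Marker lists of cDC1s and other cells were read in the same Zbtb46-GFP+ arrays. The list of 14 cDC1 genes, which holds none of the 8 but holds the deleted Batf3 and Id2, had a summed signal of 22673 to 24736 in Batf3 KO, 17217 to 17817 in Id2 KO and 43095 to 46259 in WT Zbtb46-GFP+ cells. It had 8 of 14 lower in Batf3 KO (0.226% of all genes called lower) and 12 of 14 lower in Id2 KO (0.717%), and none higher (0.11% and 1.09% of all genes), with medians of -1.26 and -2.13. The 10 cDC2 genes summed to 10928 to 14067 in Batf3 KO, 9569 to 11709 in Id2 KO and 4287 to 8642 in WT, with 1 of 10 higher in each knockout and none lower. Their median differences from WT were 0.97 in Batf3 KO and 0.99 in Id2 KO. This does not hold for each marker. In the same order, Clec4b1 differed by -0.88 and -0.86, and Clec4a4 by -0.32 and -0.57.

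Of 10 pDC genes, 8 were measured, and they summed to 7107 to 10649 in Batf3 KO, 17289 to 19154 in Id2 KO and 4949 to 6890 in WT, with 0 of 8 and 5 of 8 higher. The 7 neutrophil genes summed to 20133 to 28683 in Batf3 KO, 38851 to 40089 in Id2 KO and 15335 to 17318 in WT, with 0 of 7 and 1 of 7 higher. The 6 measured monocyte and macrophage genes summed to 7036 to 7669, 6003 to 6015 and 7117 to 7731 in the same order, with 1 of 6 higher in each knockout and 1 lower in Id2 KO, the 5 measured B lineage genes to 596 to 597, 609 to 726 and 462 to 509, and 2 erythroid genes to 119 to 152, 113 to 121 and 112 to 135. No marker was listed at 0, since array signals have a floor. The part of these lists in the lower signals of the 8 genes was not tested.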

How the data were processed

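Per the labels' protocols, bone marrow cells were sorted, RNA was column-purified and biotinylated cDNA was made with an Affymetrix WT Pico kit. The deposited values are intensity on a linear scale after RMA in Affymetrix Expression Console, per the submitters' processing notes, which give no versions; the genome build is not given in the sources used here. Of 28853 probe sets, 21789 had a single gene symbol in the platform annotation (21698 matched to RefSeq), and the set of highest mean signal was kept for each of 19938 genes.

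Log2 was taken, and limma 3.58.1 (R 4.3.3) was fitted to 6 group means on the 12 arrays on one scale (6 residual degrees of freedom, empirical Bayes without trend, two-sided, Benjamini-Hochberg over all genes, adjusted p under 0.05). In 5 comparisons the members were tested; in the 3 that chose them their values are described, with no test. The number of arrays limits the precision, and the file holds no detection call, so low signals cannot be told from background. The members, gene lists, tests and the use of 12 arrays were chosen with earlier results of these data known. Genes named are the 8 members, Batf3 and Id2, the nearest 3 genes to each member (5 to their mean profile) and called genes of the lists; list genes that were not called are mostly counted rather than named. Motifs and Xist were chosen after the rule was set. The procedure was tested on simulated data. Alternatives were all 15 arrays (with and without a term for the 3), each array left out, the replicate number as a block, 75th percentile centring, quantile normalization, an intensity trend, a filter on dim genes and all probe sets. A block for array sets was chosen after seeing the data.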

Additional observations from a re-analysis of the deposited data

Results flagged for a closer look

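Gatm had differences of opposite sign with stage. Both WT Zbtb46-GFP+ arrays lay above both WT CDP arrays (difference 1.15), while in each knockout both Zbtb46-GFP+ arrays lay below both CDP arrays of that genotype. The difference was -0.54 in Batf3 KO, which did not pass limma (adjusted p = 0.081). It was -0.69 in Id2 KO (adjusted p = 0.0271), a call that ended without any 1 of 3 Id2 KO arrays (0.128 to 0.198), with the replicate block (0.107) and with a term for the 3 arrays on another scale (0.108). The rule used high WT and low knockout Zbtb46-GFP+ values, which raises the WT difference and lowers the knockout differences. Over all genes, 21.4% were higher without overlap in the WT step. Lower without overlap were 23.3% in the Batf3 KO step and 21.4% in the Id2 KO step. The difference between the genotypes was not tested, since Gatm was chosen for it.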

How the results depend on the processing

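Of the 8 genes, 0 passed in either CDP comparison under each alternative. Between the knockouts the count was 0, but 1 with the array sets as a block (chosen after seeing the data). For the step in Batf3 KO it was 1, against 0 on all 15 arrays, 2 with the array sets as a block and 1 to 2 with each array left out. For the step in Id2 KO it was 2, against 0 on all 15 arrays, 1 with a term for the 3 arrays, 1 with replicate number as a block, and 1 to 2 with each array left out. The replicate block changed no other call of the 8 genes. Same-numbered arrays of CDPs had residual correlations of 0.53 to 0.68 and those of Zbtb46-GFP+ cells of -0.55 to 0.48, so the numbers were not taken as pairs. The median of the 8 genes between stages in WT was 3.73, and 2.27 on all 15 arrays, 3.13 with the term and 3.41 to 4.01 with each array left out. In Zbtb46-GFP+ cells it was -2.75 in Batf3 KO (-2.10 on 15 arrays, with or without the term) and -3.16 in Id2 KO (-2.38 on 15 arrays, with or without the term; -3.55 to -2.76 with each array left out). Without a term, the fit on all 15 arrays also ended the calls of Anpep in both knockout steps (adjusted p = 0.737 and 0.746), and Fzd7 in the WT step (-0.37), Ccnd1 in the Id2 KO step (-0.46) and Plpp2 in the Batf3 KO step (-0.57) turned sign. Over all genes, the Batf3 KO step had 1432 calls, against 642 to 1548 with each array left out, 2352 with quantile normalization, 3487 with the array sets as a block and 0 on 15 arrays. The Id2 KO step had 1359, against 488 to 1506, 2372, 3234 and 0. In the same order of settings, the WT step had 2212, against 1183 to 2331, 3151, 4829 and 1. Batf3 KO against WT Zbtb46-GFP+ cells had 67, against 33 to 96, 118, 250 and 0, and Id2 KO against WT had 361, against 120 to 357, 669, 1212 and 0. Id2 KO against Batf3 KO had 118, against 36 to 152, 251, 506 and 0. In CDPs, Batf3 KO against WT had 10, against 7 to 12, 13, 26 and 0, and Id2 KO against WT had 5, against 4 to 5, 6, 6 and 0. With a term for the 3 arrays, the counts of Batf3 KO and Id2 KO against WT were 29 and 207 in Zbtb46-GFP+ cells and 5 and 0 in CDPs. Centring on the 75th percentile moved the median of all genes to 0.16 in the WT step and to -0.13 in Id2 KO against WT Zbtb46-GFP+ cells, and changed no call of the 8 genes. The cause of these shifts was not tested. Among differences of the 8 genes called under neither setting, 37 changed sign. The filter on dim genes removed Rasgrp3, which has no value there.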
